A study of Mus musculus with 9 samples.

Results

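Complement is a cascade of plasma and tissue proteins that marks cells and debris for removal and calls in leukocytes. The 10 genes described here encode its components C1q (C1qa, C1qb and C1qc), C2, C3, C4 (C4b) and factor B (Cfb), the C1 inhibitor (Serping1), and the receptors of the fragments C3a and C5a (C3ar1 and C5ar1). They were found by their symbols. All 10 stood among the 25579 gene symbols of the deposited table that covers the treated and the homozygous libraries, and 1 of them, C4b, stood among the 1410 symbols of the table that covers the homozygous and the WT libraries.

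RNA came from the cochlear membranous labyrinth, the soft tissue inside the bony cochlea, of mice at postnatal day 28. The treated group, treated hMPZL2Q74X/Q74X, carried 2 copies of a humanized MPZL2 gene with a nonsense variant and had received AAV-ie-ABE8eWQ-SpRY:sgRNA3 at postnatal day 2 by injection at the round window. This agent is an adeno-associated virus for a guide and a base editor that changes A to G. The homozygous group, hMPZL2Q74X/Q74X, had the same alleles and no treatment in its labels, and the third group was Mpzl2 WT. Each group had 3 libraries, given as biological replicates, and the labels do not say whether a library pools animals. A group given an empty vector or another injection is not among those analysed here, so injection, vector, editor and guide cannot be told apart in the treated group. Values are TPM, which correct each transcript's abundance for its length and for the size of the library. The sequencing depth behind them is unknown.

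In the classical pathway C1q binds immune complexes, dying cells or microbial surfaces, and the proteases it carries cut C4 and C2, whose products form an enzyme that cuts C3. In the alternative pathway factor B takes the place of C2. C3 cleavage releases C3a and coats the target with C3b, and cleavage of C5 releases C5a and starts the membrane attack complex. The liver makes most plasma complement, while macrophages and microglia are known as the main source of C1q in tissue, and interferons are known to raise the genes of C2, C4, factor B and the C1 inhibitor in many cell types. In the cochlea, resident macrophages lie in the spiral ligament, the stria vascularis and the spiral ganglion.

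Several facts of the libraries bear on all values below. Treated library 2 was nearly a copy of treated library 1. Over genes at 1 to 5 TPM, the median absolute deviation of their log2 ratio was 0.0672, against 0.871 to 1.10 for pairs of homozygous libraries, so they were counted as 1 sample through their mean and the treated group had 2 samples. Forebrain neuron markers stood apart in those libraries. The summed TPM of 12 such genes was 1513, 1488 and 197 in treated libraries 1 to 3, against 178, 184 and 216 in the homozygous libraries. Camk2a was at 745, 722 and 8.13 TPM in the treated libraries, against 0.471, 0.503 and 0.554 TPM in the homozygous libraries. In library 3 the sum thus lay within the homozygous range, while Camk2a lay above it. Of 10 hepatocyte markers, 5 were in the table, and they summed to between 3.33 and 7.31 TPM in the treated and 0.868 to 2.39 TPM in the homozygous libraries. The 14 defining genes of the cochlea were all above 0 in every library, with sums of 6223 to 7188 TPM in the treated and 9854 to 13110 TPM in the homozygous libraries. Coch and Otos made up most of these sums, while 10 of the 14 genes had a log2 fold change above 0 and the median was 0.85. Mitochondrially encoded genes took 2.17%, 2.22% and 6.16% of TPM in the treated libraries, against 13.6%, 10.7% and 13.4% in the homozygous libraries. With TPM rescaled without those genes, 9 of the 10 complement genes still passed (limma), and their median log2 fold change was 2.39, against 2.51 with them. The part of the other shifts in the results was not tested.

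All 10 complement genes were higher in both treated samples than in any homozygous library, and 9 of them rose (limma, Benjamini-Hochberg adjusted p under 0.05 over 17102 genes). Of all genes tested, 3.44% were called higher in this comparison, and 29.2% had no overlap between groups in that direction. The mean TPM of the treated samples was 2.54 to 18.8 times that of the homozygous libraries. The median log2 fold change of the 10 genes, on the scale of log2(TPM + 1), was 2.51, against 0.20 for all genes tested. C4b ranked 42nd and C3 ranked 56th of the 17102 genes by log2 fold change, and C3ar1, the lowest of the 10, ranked 2097th. In RNA from whole tissue, more cells of a type and more RNA per cell cannot be told apart.

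With treated library 3 as the only treated sample, 7 of the 9 genes that could be tested passed, where 2.15% of all genes were called higher. C3 and C3ar1 did not pass there, and C5ar1 was below the level needed to be tested. With libraries 1 and 2 as the only treated sample, 9 of 10 passed, where 15.3% of all genes did. The calls rest on all 3 homozygous libraries: without homozygous library 1, 2 or 3, the number of genes that passed was 1, 5 and 4. C4b was called in all 16 alternative fits. An exact permutation test of each gene over the 2 treated and 3 homozygous samples gave a two-sided p of 0.2, which is the smallest this design allows.

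**Figure D1:**
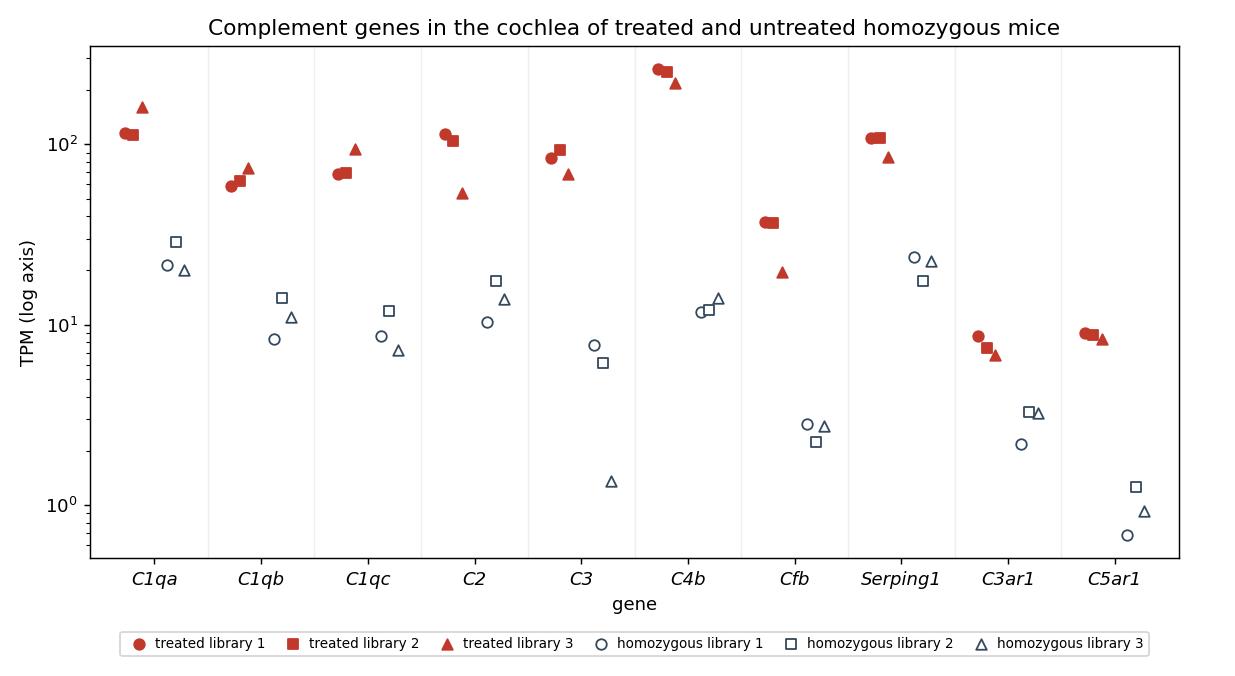
TPM of the 10 complement genes in each library on a log axis, with the 3 treated libraries (filled) left of the 3 homozygous libraries (open) for each gene. Every treated point lies above every homozygous point of the same gene, with C4b at 217 to 261 TPM in the treated libraries and 11.8 to 14.0 TPM in the homozygous libraries.

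The 3 chains of C1q, which assemble into the recognition molecule of the classical pathway, rose together. C1qa had 115, 113 and 162 TPM in the treated libraries, against 21.4, 28.8 and 20.2 TPM in the homozygous libraries. C1qb had 58.6, 62.6 and 73.8 TPM in the treated libraries, against 8.29, 14.0 and 11.02 TPM in the homozygous libraries. C1qc had 68.7, 69.7 and 93.7 TPM in the treated libraries, against 8.67, 11.9 and 7.25 TPM in the homozygous libraries. For each chain library 3 was the highest of the treated libraries and homozygous library 2 the highest of the homozygous ones, and the groups were far apart. The log2 fold changes were 2.50 for C1qa (SE 0.26, limma adjusted p = 0.00908), 2.51 for C1qb (SE 0.29, limma adjusted p = 0.0134) and 3.01 for C1qc (SE 0.30, limma adjusted p = 0.00825). The 95% intervals of the 3 chains overlapped, from 1.82 at the lowest bound to 3.73 at the highest.

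The chains kept similar proportions, although the pair C1qc and C1qb differed somewhat. The TPM of C1qa was 1.96, 1.80 and 2.19 times that of C1qb in the treated libraries, against 2.58, 2.06 and 1.83 times in the homozygous libraries. The TPM of C1qc was 1.17, 1.11 and 1.27 times that of C1qb in the treated libraries, against 1.05, 0.850 and 0.658 times in the homozygous libraries. The first ratio overlapped between groups and the second did not. The 3 genes are neighbours on chromosome 4, in the order C1qb, C1qc and C1qa in the RefSeq annotation.

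Promoter windows of C1qb and C1qc are shown because these neighbouring genes moved together. They are taken from RefSeq on build GRCm38.p6, from 250 bases before to 50 bases after the gene's start, and capitals mark matches to the motifs searched. The windows lie on the minus strand at chr4:136886151-136886450 for C1qb and at chr4:136892865-136893164 for C1qc.
C1qb: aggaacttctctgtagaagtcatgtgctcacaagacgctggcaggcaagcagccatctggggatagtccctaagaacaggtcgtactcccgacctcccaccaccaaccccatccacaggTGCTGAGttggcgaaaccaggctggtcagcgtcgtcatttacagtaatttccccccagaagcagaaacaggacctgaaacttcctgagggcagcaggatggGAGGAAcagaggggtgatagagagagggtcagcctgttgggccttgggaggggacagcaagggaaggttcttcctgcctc
C1qc: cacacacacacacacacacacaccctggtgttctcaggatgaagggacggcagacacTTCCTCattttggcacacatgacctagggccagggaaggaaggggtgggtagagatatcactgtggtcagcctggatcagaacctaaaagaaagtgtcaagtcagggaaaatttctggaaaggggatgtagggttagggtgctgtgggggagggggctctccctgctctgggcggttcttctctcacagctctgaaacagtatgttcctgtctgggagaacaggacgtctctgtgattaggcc
The core of PU.1, a transcription factor of macrophages, was searched as GAGGAA on both strands. It began 30 bases before the start of C1qb and 193 bases before that of C1qc, and 28.3% of all 32851 windows of this length held it. A motif of the Maf factors (TGCTGAG on both strands, in 7.84% of all windows) began 131 bases before the start of C1qb. Windows of 5 of the 10 genes were matched by symbol, and 5 were not (C1qa, C2, C4b, Cfb and Serping1). In the 5 windows, 0 held the interferon-stimulated response element (GAAA, any 2 bases and GAAA, in 3.44% of all windows), 0 the gamma-activated site (TTCNNNGAA, in 8.3%) and 0 the NF-kB motif (GGGANTTCC, in 1.68%), searched on both strands. The motifs were settled after a first look at these windows, other spellings of some of them were looked at as well, and no match overlapped another. Such matches describe letters and do not show that a factor binds.

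Macrophage markers moved in the same libraries as C1q. Of 20 tested markers of macrophages and microglia, a list without complement genes, 9 rose and 0 fell, against 3.44% of all genes called higher, and the median log2 fold change was 1.64. Their summed TPM was 1145, 1126 and 1208 in the treated libraries, against 248, 357 and 254 in the homozygous libraries. The protease gene Ctss had 310, 314 and 349 TPM in the treated libraries, against 39.5, 40.5 and 43.8 TPM in the homozygous libraries. The lysozyme gene Lyz2 had 259, 257 and 343 TPM in the treated libraries, against 36.7, 75.7 and 25.2 TPM in the homozygous libraries. Both rose, as did Csf1r, the receptor that macrophages need to survive, by 2.28 on the log2 scale (limma adjusted p = 0.025). The scavenger receptor Cd163, the hyaluronan receptor Lyve1 and the receptor for dying cells Mertk had log2 fold changes of -0.33, -1.0 and -0.50 and did not pass. The sum of the 3 C1q chains was 0.211, 0.217 and 0.272 times the sum of the macrophage markers in the treated libraries, against 0.154, 0.153 and 0.151 times in the homozygous libraries. These ratios did not overlap, and the part of macrophage number in the C1q values was not tested.

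C4b and C2, whose products form the C3-cutting enzyme of the classical pathway, also rose. C4b had 261, 252 and 217 TPM in the treated libraries, against 11.8, 12.1 and 14.0 TPM in the homozygous libraries. Both groups were tight, and C4b averaged 237 ± 27.5 TPM in treated samples (SD, n = 2) and 12.6 ± 1.196 TPM in the homozygous group (SD, n = 3). It had a log2 fold change of 4.12 (SE 0.20, limma adjusted p = 0.00107). C2 had 113, 105 and 53.4 TPM in the treated libraries, against 10.3, 17.4 and 13.8 TPM in the homozygous libraries, a log2 fold change of 2.41 (SE 0.37, limma adjusted p = 0.0269). For C2, library 3 was the lowest treated library and still above every homozygous library.

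Factor B, the alternative pathway's counterpart of C2, is the gene next to C2 on chromosome 17. Cfb had 37.1, 36.5 and 19.7 TPM in the treated libraries, against 2.82, 2.24 and 2.74 TPM in the homozygous libraries. It rose by 2.96 on the log2 scale (SE 0.40, limma adjusted p = 0.0196), and as for C2 the lowest treated value was that of library 3. The TPM of C2 was 3.06, 2.87 and 2.71 times that of Cfb in the treated libraries, against 3.66, 7.76 and 5.05 times in the homozygous libraries, so that the groups did not overlap.

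Reads of C4b, C2 and Cfb can be shared with other genes, which makes their levels uncertain. Of the stretches of 31 bases in the C4b transcripts of GENCODE M21, 48.3% also occur in C4a, the neighbouring copy of the gene. C4a was at 17.9, 20.1 and 2.50 TPM in the treated libraries, against 0.51, 1.89 and 4.42 TPM in the homozygous libraries, and did not pass. Gm20547, a gene that overlaps both C2 and Cfb, holds 40.2% of the stretches of C2 and 75.5% of those of Cfb. It was at 4.58, 6.60 and 4.98 TPM in the treated libraries, against 1.41, 1.66 and 1.46 TPM in the homozygous libraries (log2 fold change 1.32, limma adjusted p = 0.0839). Both genes were lower than their partners in every library. For C1qa, C1qb, C1qc, C3, Serping1 and C5ar1 the share was 0, and for C3ar1 it was 0.47%.

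C3, the protein on which all complement pathways meet, had 84.4, 93.0 and 68.8 TPM in the treated libraries, against 7.77, 6.13 and 1.36 TPM in the homozygous libraries. It varied most among the 10 genes in the homozygous group, where the highest library was 5.71 times the lowest. The log2 fold change was 3.90, with a standard error of 0.58 and a 95% interval of 2.51 to 5.30 (limma adjusted p = 0.0244). The promoter window of C3 lies on the minus strand at chr17:57228087-57228386 (RefSeq, GRCm38.p6) and is shown because C3 had the second largest fold change of the 10 genes.
C3: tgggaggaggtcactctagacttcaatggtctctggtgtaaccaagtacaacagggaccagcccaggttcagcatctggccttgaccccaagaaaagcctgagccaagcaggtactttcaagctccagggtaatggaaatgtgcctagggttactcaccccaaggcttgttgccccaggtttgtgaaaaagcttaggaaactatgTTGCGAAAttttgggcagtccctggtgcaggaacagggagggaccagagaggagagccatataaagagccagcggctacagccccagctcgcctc
The capitals mark a match to a motif of the C/EBP factors, searched as TTGCNNAA on both strands, which began 45 bases before the start of C3. It was in 10.8% of all windows and in 1 of the 5 windows of complement genes.

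Serping1 encodes the C1 inhibitor, a plasma protein that blocks the proteases of C1. It had 108, 108 and 84.5 TPM in the treated libraries, against 23.8, 17.5 and 22.7 TPM in the homozygous libraries. The gene rose by 2.12 on the log2 scale (SE 0.24, limma adjusted p = 0.0117), the smallest log2 fold change among the 9 genes that passed.

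The receptors had low levels in both groups. C5ar1, the C5a receptor of neutrophils and macrophages, had 8.98, 8.82 and 8.30 TPM in the treated libraries, against 0.684, 1.26 and 0.935 TPM in the homozygous libraries. It rose by 2.30 on the log2 scale (SE 0.38, limma adjusted p = 0.0314), and it reached the level needed to be tested through the treated libraries. C3ar1, the C3a receptor, had 8.63, 7.42 and 6.79 TPM in the treated libraries, against 2.19, 3.28 and 3.26 TPM in the homozygous libraries. Its values did not overlap between groups, but it did not pass (log2 fold change 1.11, 95% interval 0.22 to 2.01, limma adjusted p = 0.126). At such levels the added 1 TPM shrinks the fold change, and the mean TPM of C5ar1 was 8.96 times and that of C3ar1 2.54 times the homozygous mean. C3ar1 had 0.961, 0.841 and 0.818 times the TPM of C5ar1 in the treated libraries, against 3.20, 2.60 and 3.49 times in the homozygous libraries, so the order of the receptors turned round. The promoter windows of both held the Maf motif, and that of C3ar1 also held an AP-1 motif (TGANTCA on both strands, in 7.81% of all windows) that began 22 bases before the start.

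Neutrophils also carry C5ar1. Of 11 tested neutrophil genes 0 passed in either direction with limma, 8 had a log2 fold change above 0, and the median was 1.51. In both treated samples 4 were higher than in every homozygous library, where 29.2% of all genes were, so this count is near that share. Of these 4, 1 was under 1 TPM in every homozygous library and was tested only because the treated libraries were high. The neutrophil list summed to 225, 224 and 248 TPM in the treated libraries, against 153, 623 and 57.7 TPM in the homozygous libraries. The highest of these genes, S100a9 and Ltf, had 329 and 94.3 TPM in homozygous library 2, the highest values of the 6 libraries. The part of neutrophils in the receptor values was not tested.

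By mean TPM, a scale per transcript length, the order of the 10 genes in the treated samples was C4b at 237, C1qa at 138, Serping1 at 96.4, C1qc at 81.5, C2 at 81.3, C3 at 78.8, C1qb at 67.2, Cfb at 28.3, C5ar1 at 8.60 and C3ar1 at 7.41. The ranges of neighbours in that order overlapped from Serping1 down to C1qb. In the homozygous libraries the order was C1qa at 23.5, Serping1 at 21.4, C2 at 13.8, C4b at 12.6, C1qb at 11.1, C1qc at 9.27, C3 at 5.09, C3ar1 at 2.91, Cfb at 2.60 and C5ar1 at 0.960. There the ranges of neighbours overlapped except between Serping1 and C2 and between Cfb and C5ar1. C4b thus led in treated samples, while its mean in the homozygous libraries was below those of C1qa, Serping1 and C2. By library, C4b had 1.14, 0.695 and 1.01 times the TPM of C2 in the homozygous group. It made up 30.2%, 29.4% and 27.6% of the summed TPM of the 10 genes in the treated libraries, against 12.1%, 10.5% and 14.4% in the homozygous libraries. The 10 genes summed to 863, 856 and 788 TPM in the treated libraries, against 97.8, 115 and 97.2 TPM in the homozygous libraries.

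The treated samples differed in the make-up of this response. The C1q chains were higher in library 3 than in the mean of libraries 1 and 2, by 0.50 for C1qa, 0.28 for C1qb and 0.43 for C1qc on the log2 scale. The other 7 genes were lower in library 3, with differences of -1.02 for C2, -0.87 for Cfb and between -0.36 and -0.09 for the remaining genes. With 1 sample on each side these differences were not tested. The C1q chains made up 28.04% and 28.6% of the summed TPM of the 10 genes in treated libraries 1 and 2 and 41.8% in library 3, against 39.2%, 47.7% and 39.5% in the homozygous libraries. The sum of the forebrain neuron markers was high in libraries 1 and 2 and not in library 3, as given above. Camk2a was still higher in library 3 than in every homozygous library. The part of these markers in the differences between the treated samples was not tested. All 10 genes were higher in library 3 than in every homozygous library.

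**Figure D2:**
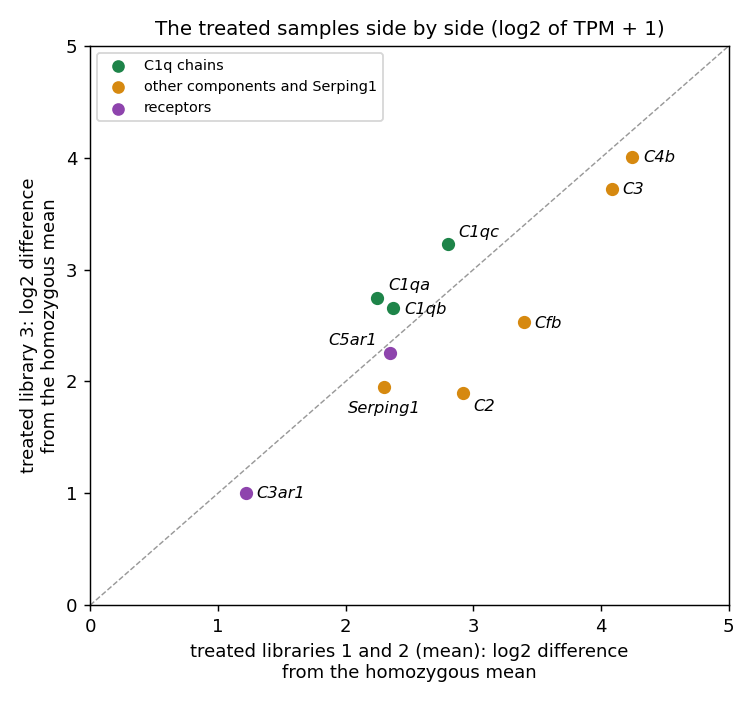
Difference of log2(TPM + 1) from the mean of the homozygous libraries, for treated libraries 1 and 2 as their mean (x axis) and for treated library 3 (y axis), 1 point per gene, with a dashed line where both are equal. The C1q chains lie above the line, C2 and Cfb lie farthest below it, and C4b and C3 are highest on both axes.

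Genes of the interferon response were higher in the same treated libraries. Of 22 tested, 21 rose and 0 fell, where 3.44% of all genes were called higher and 0.965% lower. The median log2 fold change was 3.64. Their summed TPM was 3279, 3286 and 3765 in the treated libraries, against 242, 321 and 301 in the homozygous libraries. Of the 21 genes, 1 was under 1 TPM in every homozygous library and was tested only because the treated libraries were high. Of 13 tested lymphocyte markers 9 rose and 0 fell, beside the same 3.44% of all genes called higher. They had sums of 199, 195 and 238 TPM in the treated libraries, against 47.5, 65.6 and 35.0 TPM for the homozygous group. Of these 9 genes, 6 were under 1 TPM in every homozygous library and were tested only because the treated libraries were high, so the filter favours that count. Lists of fibroblasts, with 8 tested genes, and endothelium, with 8, had 0 genes that passed and median log2 fold changes of -0.44 and 0.04. Of 9 tested genes of central glia 0 rose and 1 fell, with sums of 1743, 1728 and 489 TPM in the treated libraries, against 1937, 788 and 2421 TPM for the homozygous group. Of the 14 cochlear genes 1 rose and 1 fell, namely Otog and Otos, which encode proteins of the inner ear. The forebrain neuron list had 7 tested genes, of which 0 passed.

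**Figure D3:**
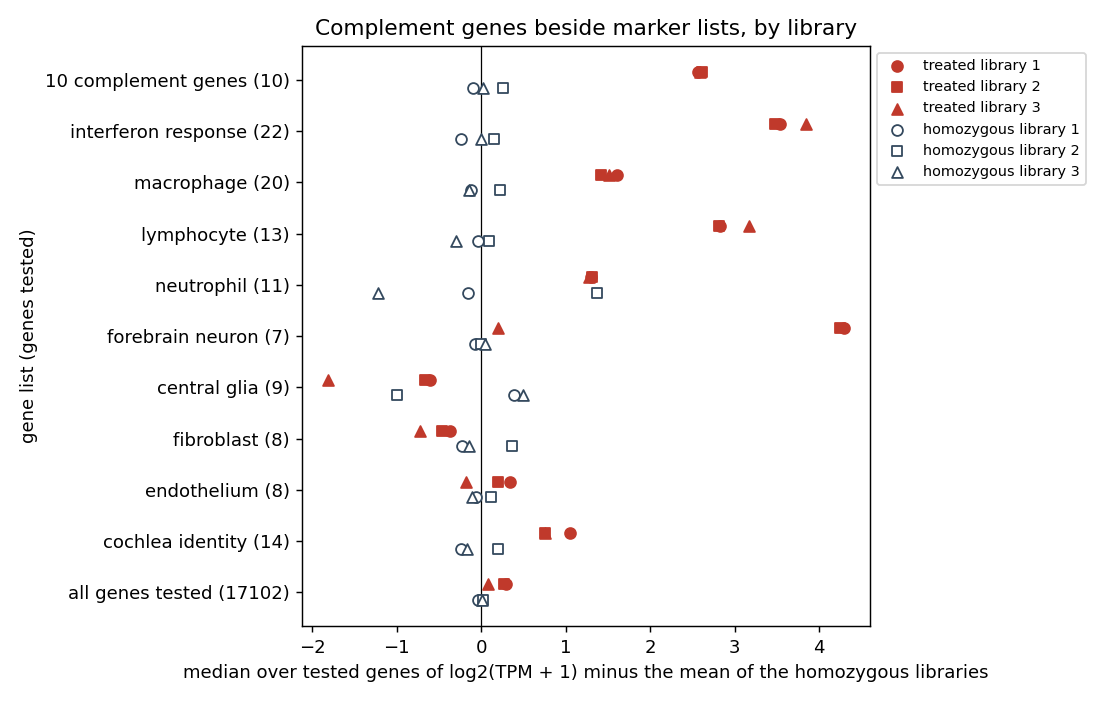
Median over the tested genes of each list of log2(TPM + 1) minus the mean of the homozygous libraries, by library, with treated libraries filled and homozygous libraries open. The 10 complement genes lie between 2.57 and 2.61 in all 3 treated libraries, while the forebrain neuron list lies at 4.29 and 4.25 in treated libraries 1 and 2 and at 0.20 in library 3.

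The profiles most like those of the complement genes were found by the root mean square difference over the 6 libraries, on the log2 scale relative to the homozygous mean, among tested genes with ordinary symbols. Closest to the mean profile of the C1q chains were B2m, the light chain of class I molecules, Ly6e, the chemokine gene Cxcl16, the interleukin 10 receptor gene Il10ra, and Mpeg1, a pore-forming protein of macrophages, with differences of 0.122 to 0.1498. Closest to C4b were the guanylate-binding protein genes Gbp3 and Gbp4, Cd274, which encodes the checkpoint ligand PD-L1, the interferon-induced gene Ifit3, and Serpina3f, with differences of 0.149 to 0.248. Serpina3f was at 0 TPM in every homozygous library and was tested only because the treated libraries were high. B2m was at 2105, 2115 and 2944 TPM in the treated libraries, against 295, 448 and 309 TPM in the homozygous libraries. Gbp3 was at 259, 243 and 221 TPM in the treated libraries, against 8.89, 11.5 and 14.2 TPM in the homozygous libraries. As treated libraries 1 and 2 are close to identical, such a profile holds fewer than 6 independent values.

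Some other complement genes passed the test, and most of those tested did not. Of 51 other complement genes in 4 lists, 48 were in the table and 29 were tested; 4 rose and 1 fell, against 3.44% of all genes higher and 0.965% lower. The median log2 fold change of the 29 genes was 0.0027, against 2.51 for the 10 genes and 0.20 for all genes tested.

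Among recognition molecules and proteases, 2 of 8 tested genes rose, and both encode proteases that C1q carries. C1ra had 35.1, 33.8 and 39.9 TPM in the treated libraries, against 2.30, 3.75 and 6.38 TPM in the homozygous libraries (log2 fold change 2.97, limma adjusted p = 0.0217). C1s1 had 65.8, 58.8 and 79.0 TPM in the treated libraries, against 6.55, 8.93 and 16.7 TPM in the homozygous libraries (log2 fold change 2.69, limma adjusted p = 0.0234). Both also passed with treated library 3 as the only treated sample. C1ra lost its call without any 1 of the homozygous libraries, and C1s1 without homozygous library 1 or 2. The log2 fold changes of the other tested genes ranged from -0.19 for Masp1, a protease of the lectin pathway, to 1.54 for C4a. The treated samples differed in these genes: relative to the homozygous mean, Masp1 was at -1.21 in libraries 1 and 2 and 0.83 in library 3 on the log2 scale, and C4a was at 2.80 and 0.29. Fcna, a lectin pathway ficolin, was at 1.76 in libraries 1 and 2 and -0.80 in library 3. Properdin, Cfp, which stabilizes the alternative pathway's enzyme, had 16.3, 15.8 and 24.5 TPM in the treated libraries, against 11.5, 11.5 and 8.40 TPM in the homozygous libraries, and did not pass (limma adjusted p = 0.156). Cfd, the protease that cuts factor B, was listed at 0 in all treated libraries and in homozygous libraries 1 and 2, and at 0.27 TPM in homozygous library 3.

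Of 13 tested regulators 0 rose and 1 fell, 4 had a log2 fold change above 0 and 9 below it. In both treated samples 5 were lower than in every homozygous library, where 15.8% of all genes were, and 1 was higher, where 29.2% were. Cd59a, which blocks the membrane attack complex, had 77.8, 77.6 and 116 TPM in the treated libraries, against 202, 201 and 222 TPM in the homozygous libraries (log2 fold change -1.13, limma adjusted p = 0.0416). Without homozygous library 1, 2 or 3, 0 regulators and 0 other complement genes were called lower, and the call was also lost in library 3 alone and without a variance trend. Clusterin, Clu, which keeps the membrane attack complex from inserting and was the regulator with the highest TPM, had 833, 885 and 1209 TPM in the treated libraries, against 794, 723 and 719 TPM in the homozygous libraries. It did not pass (log2 fold change 0.45, limma adjusted p = 0.249). The decay-accelerating factor Cd55 had 13.9, 13.2 and 22.1 TPM in the treated libraries, against 42.3, 27.97 and 33.7 TPM in the homozygous libraries, and did not pass (limma adjusted p = 0.12). Csmd2, a membrane protein with complement control domains, was at 1.30 in libraries 1 and 2 and -1.29 in library 3 relative to the homozygous mean on the log2 scale. Masp1, C4a, Fcna, Cfp, Cfd, Clu, Cd55 and Csmd2 were named after their values were seen.

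Among 8 other tested receptors and binding proteins 2 rose and 0 fell. Itgb2 and Itgax encode the chains of complement receptor 4, an integrin of myeloid cells. Itgb2 had 26.5, 24.5 and 33.7 TPM in the treated libraries, against 5.22, 4.64 and 1.25 TPM in the homozygous libraries (log2 fold change 2.82, limma adjusted p = 0.0401). Itgax had 5.49, 3.82 and 9.29 TPM in the treated libraries, against 0, 0.342 and 0.458 TPM in the homozygous libraries (log2 fold change 2.61, limma adjusted p = 0.034). Both lost their call without any 1 of the homozygous libraries, and Itgb2 also with treated library 3 as the only treated sample. Itgax was under 1 TPM in every homozygous library and was tested only because all 3 treated libraries, near-copies included, were above that level. It could not be tested without any 1 of the treated libraries or with library 3 alone. Of the 7 genes of the terminal pathway 0 reached the level needed to be tested, and 5 were under 1 TPM in all 6 libraries.

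**Figure D4:**
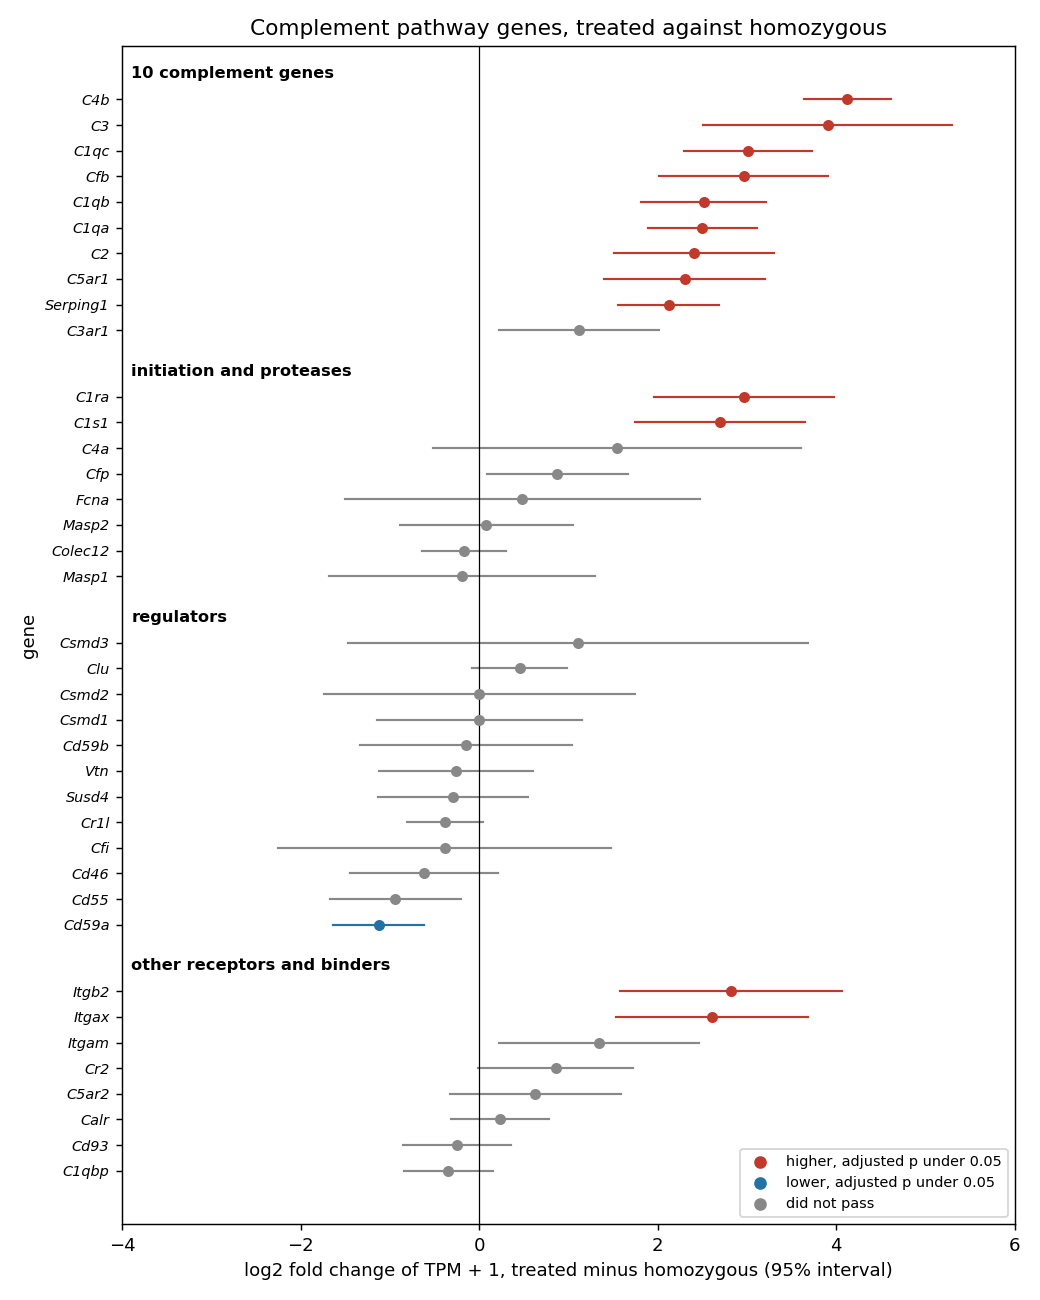
Log2 fold change of TPM + 1, treated minus homozygous, with its 95% interval from limma, for the 10 complement genes and other tested complement genes by role. Genes called higher are red, genes called lower blue and the rest grey, and the 10 genes lie between 1.11 and 4.12 while most regulators lie below 0.

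The comparison of homozygous with WT cochlea held C4b alone of the 10 genes, in a table whose rows appear to be chosen on these samples, which makes its adjusted p-values too small. C4b had 8.33, 8.63 and 9.92 TPM in the homozygous libraries, against 6.43, 7.11 and 5.203 TPM in the WT libraries. The groups did not overlap, as for 31.5% of the 1348 tested genes of that table in this direction. C4b averaged 8.96 ± 0.842 TPM in homozygous and 6.25 ± 0.965 TPM in WT libraries (SD, n = 3 each) and did not pass (log2 fold change 0.46, SE 0.20, limma unadjusted p = 0.0472, adjusted p = 0.0648), where 17.9% of the tested genes were called higher and 33.5% lower. It did pass under median-of-ratios scaling (limma adjusted p = 0.0376). An exact permutation test gave a two-sided p of 0.1, the smallest that 3 against 3 samples allow.

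Among the other complement genes of that table, Cd59a rose, with 168, 163 and 171 TPM in the homozygous libraries, against 107, 123 and 115 TPM in the WT libraries (log2 fold change 0.53, limma adjusted p = 0.0188), but leaving out 1 library ended that call in 3 of 6 fits. Colec10, a lectin, was below the level needed to be tested. Values cannot be carried from one table to the other. The same homozygous libraries had 1.40 to 1.41 times as much C4b in the table with the treated libraries, where the median ratio over 1337 genes was 1.14 to 1.16, and so treated libraries were not compared with WT.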

How the data were processed

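RNA was measured in 9 libraries of 3 groups, read from the titles. The libraries were made from total RNA with a strand-specific kit, per the labels. The deposited values are TPM in 2 tables, and per the submitters' processing notes the authors used kallisto 0.51.0, DESeq with no version given, and genome build GRCm39. The row filter and annotation are not given in the sources used here.

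Rows of the same symbol were added up, giving 25579 symbols of 25606 rows and 1410 symbols in the other table. A gene was tested where 3 or more libraries reached 1 TPM, which kept 17102 and 1348 genes. Within each table, limma 3.58.1 (R 4.3.3) compared groups on log2(TPM + 1) and let the variance follow the mean level. Two-sided p-values were adjusted by Benjamini-Hochberg across every gene tested, at a threshold of 0.05. Treated libraries 1 and 2 entered as their mean. Whether replicates were separate animals is not stated, so p-values measure the spread between these samples. The scripts were tested on simulated data.

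Some genes of the lists are not reported here by name, though they are counted. The genes and lists were chosen with earlier results of these data known. Every one of the 10 genes is described. Of the 4 other complement lists, genes that passed are named, up to 4 in each direction. Of marker lists the rule names the 2 tested genes highest in each group; this is followed for macrophages and neutrophils, and other marker genes (Csf1r, Cd163, Lyve1, Otog, Otos, Camk2a) were chosen after their values were seen. Alternatives varied the pseudocount, filter, scaling, trend, merging of libraries 1 and 2, replicate block and each library. The fit with treated library 3 alone was added after the data had been seen. Promoter windows are from RefSeq (GRCm38.p6), a build other than that of the deposited values, and shared stretches of 31 bases are from GENCODE M21 transcripts.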

Additional observations from a re-analysis of the deposited data

How the results depend on the processing

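For the 10 complement genes the count called higher was 9, and it was 4 with no filter on low values, where 25579 genes were tested, and 1 to 9 with 1 library left out. Their median log2 fold change of 2.51 was 2.84 with a pseudocount of 0.1, 2.15 with one of 5 and 2.31 under median-of-ratios scaling, and 2.39 to 2.67 with 1 library left out. That scaling put the median of all genes at 0.017, against 0.20. Of the other complement genes, 4 were higher, against 2 with a pseudocount of 0.1, 0 without the filter and 2 in library 3 alone, and 0 to 6 with 1 library left out. The count lower was 1, against 0 without the filter, without a trend or in library 3 alone, 3 with libraries 1 and 2 as 2 samples, and 0 to 3 with 1 library left out. It was 2 with a filter of 5 TPM, under median-of-ratios scaling, without mitochondrially encoded genes and with the replicate block. For C4b against WT the count was 0, and 1 under median-of-ratios scaling.

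Over all genes 589 were higher and 165 lower, against 127 and 7 without the filter, 2554 and 1009 with libraries 1 and 2 as 2 samples, 342 higher in library 3 alone, 73 lower without a trend, and 69 to 2544 and 1 to 905 with 1 library left out. The replicate numbers did not pair the samples: the correlations of deviations from the group means were 0.03, -0.15 and -0.12, and 0 of 3 treated libraries correlated best with their own number. The replicate block gave 1127 higher and 358 lower and 9 of the 10 complement genes. In every alternative run that tested them, the 10 complement genes, C1ra, C1s1, Itgb2, Itgax and Cd59a kept the sign of their log2 fold change. Most other named genes were not followed through these runs. Masp1, Fcna and Csmd2 had opposite signs in the treated samples, as given above. The cause of the moves in these counts and values was not tested. Where 1 treated library was left as the only treated sample, it was assumed to vary like the homozygous group. TPM keep no depth, so what depth limits is unknown.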

Other observations

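Genes of the pathway outside the 10, and the macrophage marker Trem2, also differed between the treated samples. All of these were chosen after their values were seen. C8g, which encodes a chain of the terminal component C8, was listed at 0, 0 and 18.3 TPM in treated libraries 1 to 3, against 0.349, 2.85 and 0.652 TPM in the homozygous libraries. Csmd3, a large membrane protein with complement control domains, was at 17.4, 17.3 and 0.142 TPM in the treated libraries, against 1.49, 0.7996 and 1.16 TPM in the homozygous libraries. Trem2, a receptor of macrophages and microglia, was at 20.9, 20.7 and 5.17 TPM in the treated libraries, against 2.24, 6.06 and 0.493 TPM in the homozygous libraries. The level of C1qa was 0.869, 0.886 and 1.39 times that of Csf1r in treated libraries 1 to 3, against 1.25, 0.748 and 0.916 times in the homozygous libraries, and so these ratios overlapped between the groups.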
